A study of Mus musculus with 8 samples.

Results

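The protein-coding side of cytosolic translation was followed on each array: the ribosomal proteins of the large (60S) and small (40S) subunits, and the eukaryotic initiation factors (eIFs) that bring ribosome and mRNA together. Members were chosen by gene symbol alone, as probe sets that the array's platform annotation gives a single symbol beginning with Rpl, Rps or Eif followed by the usual subunit or factor number; S6 kinases, eIF2 alpha kinases and Rps19bp1 were left out. The rule gave 85 genes with 185 probe sets, out of 10401 singly named genes and 18443 probe sets in all. Of these, 47 symbols with 95 probe sets belong to the ribosomal protein families, and 38 genes with 90 probe sets encode initiation factors or proteins named after one. Among the 47 is Rps15a-ps6 (1430290_at, a difference of 0.007), whose symbol names a pseudogene. The rule used no measured value. A further 99 probe sets carry several symbols with a ribosomal protein among them and are outside it; ribosomal protein genes have many processed pseudogenes, and probe sets whose name ends in _x_at or _s_at may read more than 1 transcript.

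The mice were C57BL/6 males aged 2.5 to 3.0 months. IE-Cpr-null mice have no NADPH-cytochrome P450 reductase (Cpr), the electron donor of microsomal P450 enzymes, in the epithelium of the intestine, and the controls were their wild-type (WT) littermates. Enterocytes, the absorptive cells of the epithelium, were isolated from the small intestine, and every array carried RNA of 2 mice pooled, with 4 arrays per genotype. The promoter that drives the deletion is not given in the sources used here. In the deposited table each probe set is centred on the median of the 4 WT arrays, so 0 is the WT median, no expression level is known, and each value is a log2 difference; values cannot be set against each other as levels. Where 4 values are given for a genotype they stand in the order of its arrays, 1 to 4.

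The 60S subunit joins amino acids and carries the P-stalk, which recruits elongation factors; the 40S subunit reads the mRNA. Initiation runs through named steps: eIF2 delivers the initiator tRNA and is recharged with GTP by eIF2B, eIF3 is the large scaffold on the 40S subunit, eIF4E binds the mRNA cap within the eIF4F complex and is held back by 4E-binding proteins, and eIF5 and eIF5B complete subunit joining. Messenger RNAs of ribosomal proteins and of some factors begin with a C followed by a tract of pyrimidines (a 5′ terminal oligopyrimidine or TOP motif), through which mTOR signalling controls their translation. In the intestine, dividing crypt cells make new ribosomes, and differentiated cells of the villus divide no longer.

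The start sites of several members are shown because a pyrimidine tract there was shared by 27 of the 40 ribosomal protein genes that could be looked up (67.5%). By gene the share was 40.3% over all promoters and 36.7% over the factors. RefSeq start sites (GRCm38.p6) were found for 40 of the ribosomal protein genes (48 windows) and 30 of the factor genes (42 windows). Each window below is 30 bases on the gene's strand, 15 before the annotated start and 15 from it on, with the longest run of a C followed by at least 4 bases that are each C or T in capitals.
Rps6 (chr4:86857353-86857382, minus strand): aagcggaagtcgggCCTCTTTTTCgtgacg
Rpl35 (chr2:39005117-39005146, minus strand): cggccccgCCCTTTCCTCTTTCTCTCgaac
Rpl14 (chr9:120571502-120571531, plus strand): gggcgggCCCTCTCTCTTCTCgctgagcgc
Rps18 (chr17:33955651-33955680, minus strand): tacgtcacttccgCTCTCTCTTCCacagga
Rplp2 (chr7:141447636-141447665, plus strand): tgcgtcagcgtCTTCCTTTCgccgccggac
Such a run lay in 28 of the 48 ribosomal protein windows (58.3%), against 11948 of the 32851 windows of all promoters (36.4%), and in 14 of the 42 factor windows (33.3%). Runs of 8 or more bases were in 19 ribosomal protein windows (39.6%), 10 factor windows (23.8%) and 9.26% of all windows. Factors with long runs included a pair of eIF3 subunits and the catalytic subunit of eIF2B.
Eif3f (chr7:108934400-108934429, plus strand): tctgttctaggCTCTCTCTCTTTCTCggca
Eif3l (chr15:79075208-79075237, plus strand): gcgcggagttcttcttccgCTCTCTCCCac
Eif2b5 (chr16:20498802-20498831, plus strand): CCTTCCTCTTTCTCTCCCTgcaactacacc
The window held no such run for the P-stalk base Rplp0, the eIF3 scaffold Eif3a and the helicase Eif4a1, shown for contrast.
Rplp0 (chr5:115559452-115559481, plus strand): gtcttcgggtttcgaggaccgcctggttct
Eif3a (chr19:60790679-60790708, minus strand): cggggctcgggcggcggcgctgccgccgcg
Eif4a1 (chr11:69672409-69672438, minus strand): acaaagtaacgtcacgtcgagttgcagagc
The search covered only the gene's strand, and annotated starts can be off by some bases, so a window without a run says only that these letters are not in it. A run may lie anywhere in the window and need not begin at the start base, as a TOP motif does.

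Arrays of a genotype differed in the transcripts of other cell types. The 9 measured of 11 enterocyte markers had array means within -0.089 to 0.034; their levels are unknown. Within that narrow range 11 of their 15 probe sets (73.3%) were lowest on IE-Cpr-null array 1, against 17.2% of all probe sets, and 8 (53.3%) were highest on WT array 3, against 9.52% of all. The 11 measured hepatocyte markers averaged 5.93 on IE-Cpr-null array 2 and 3.70 on IE-Cpr-null array 3, and -0.29 to 0.20 on the others. The 10 stromal and muscle markers averaged 4.69 on IE-Cpr-null array 1 and 1.97 on WT array 2, with the others from -0.44 to 0.22. The 11 measured pancreatic acinar markers lay at -0.68, 1.45, -4.39 and 0.53 on the WT arrays and -1.56, -4.49, -4.73 and -4.55 on those of IE-Cpr-null. Since Cpr itself is not analysed here, no transcript checks which arrays are IE-Cpr-null. In such bulk samples, fewer cells of a type and less RNA per cell cannot be told apart.

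Ribosomal protein transcripts did not differ detectably between the genotypes. None (0) of the 95 probe sets passed the threshold (limma adjusted p under 0.05), where 4 of all 18443 passed (0.0217%). At an unadjusted p under 0.05 there were also 0, against 7.4% of all probe sets, and for 0 probe sets were the 4 IE-Cpr-null arrays clear of the 4 WT arrays, against 1.64% (higher) and 2.47% (lower) of all. The differences, IE-Cpr-null minus WT, ran from -0.32 to 0.22 with a median of -0.008; 41 were above 0 and 54 below. Over all probe sets the median was 0.016, with 10609 above 0 and 7834 below. A difference over 0.2 in size was seen in 2 of 95 (2.11%), against 15.5% of all, and adjusted p ran from 0.804 to 0.996.

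**Figure D1:**
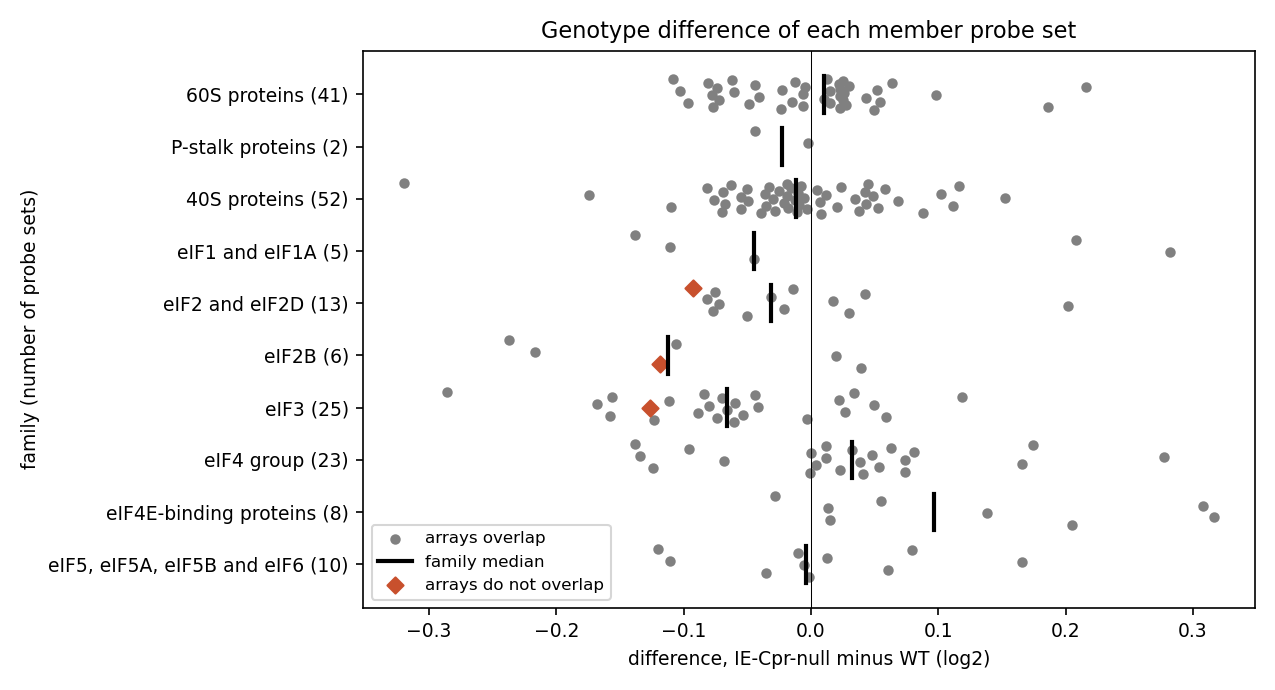
Difference between the genotypes (IE-Cpr-null minus WT, log2, horizontal axis) of each of the 185 member probe sets, one point each, in rows by family; the black bar is the family's median, and diamonds are probe sets whose 4 IE-Cpr-null and 4 WT arrays do not overlap. The ribosomal proteins lie between -0.32 and 0.22, and the 3 diamonds, all below 0, belong to Eif2d, Eif2b5 and Eif3l.

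The large subunit was measured by 43 probe sets of 25 genes, the P-stalk included. Their median difference was -0.002, with 21 above 0 and 22 below. Rplp0, the base of the P-stalk and a common reference gene, had values of -0.019, -0.036, 0.27 and 0.019 on the WT arrays and 0.32, -0.44, 0.17 and -0.001 on those of IE-Cpr-null. It was high on WT array 3 and IE-Cpr-null array 1 and low on IE-Cpr-null array 2, and its difference was -0.044 (SE 0.16, 95% interval -0.42 to 0.33, limma adjusted p = 0.922). Rplp2, which pairs with another acidic protein on the stalk, lay at -0.056, 0.019, 0.38 and -0.019 on the WT arrays and 0.37, -0.15, 0.095 and -0.004 on those of IE-Cpr-null. The same 3 arrays stood apart, and its difference of -0.002 (SE 0.14) had a 95% interval of -0.32 to 0.31.

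Rpl14 had the highest difference of the large subunit, and it rested on a single array. Its values were 0.16, 0.017, -0.017 and -0.12 on the WT arrays and 0.93, -0.054, 0.089 and -0.057 on those of IE-Cpr-null. The genotypes overlapped apart from IE-Cpr-null array 1, and the difference of 0.22 (SE 0.22, limma adjusted p = 0.86) became -0.018 without that array. Rpl41, the shortest ribosomal protein, was read by 4 probe sets with differences from 0.043 to 0.19. One of them (1433530_at) lay at -0.18, 0.064, 0.055 and -0.055 on the WT arrays and 0.81, -0.10, -0.35 and -0.21 on those of IE-Cpr-null, again with IE-Cpr-null array 1 far above the rest, and its difference of 0.064 turned to -0.19 without it. Rpl35, near the exit of the nascent chain, had 5 probe sets with differences from -0.006 to 0.054; the one with the widest range read -0.11, 0.11, 0.33 and -0.13 on the WT arrays and 0.81, -0.36, 0.024 and -0.057 on those of IE-Cpr-null. Its difference moved between -0.18 without IE-Cpr-null array 1 and 0.21 without IE-Cpr-null array 2.

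At the other end of the large subunit, Rpl8 had a difference of -0.11 (SE 0.20, limma adjusted p = 0.863), Rpl7l1 (a relative of Rpl7) -0.10 (SE 0.087, limma adjusted p = 0.86), Rpl37a -0.097 (SE 0.12, limma adjusted p = 0.86) and Rpl38 -0.081 (SE 0.092, limma adjusted p = 0.86). Rpl8, at the peptidyl transferase centre, lay at -0.13, -0.049, 0.35 and 0.049 on the WT arrays and 0.34, -0.57, 0.12 and -0.10 on those of IE-Cpr-null. This is the pattern of Rplp0 with a wider swing, and without IE-Cpr-null array 2 its difference was 0.064. Of the 3 Rpl27 probe sets the highest gave 0.098 (SE 0.16, limma adjusted p = 0.862) and the others -0.049 and -0.015. The paralogs Rpl22 and Rpl22l1, of which the second is known to rise when the first is lost, gave 0.028 and -0.072 for the 2 probe sets of Rpl22 and 0.03 for Rpl22l1. These differences were all smaller than their standard errors of 0.12, 0.21 and 0.13. Rpl3l and Rpl39l, paralogs known for muscle and testis, had differences of 0.025 and 0.023.

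The small subunit was measured by 52 probe sets of 22 genes, with a median difference of -0.012, 20 above 0 and 32 below. Rps6, the 40S protein that S6 kinase phosphorylates, had the lowest difference of all ribosomal proteins on its probe set 1416142_at. The values were 0.006, -0.006, 0.54 and -0.036 on the WT arrays and 0.32, -1.10, 0.091 and -0.08 on those of IE-Cpr-null. One array of each genotype stood far out, WT array 3 upward and IE-Cpr-null array 2 downward, and the other arrays of the genotypes overlapped. The difference was -0.32 (SE 0.31, 95% interval -1.04 to 0.40, limma adjusted p = 0.86), and without IE-Cpr-null array 2 it was -0.016. The second Rps6 probe set, 1453466_at, moved little, from -0.085 to 0.075, with a difference of 0.042 (SE 0.042).

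Rps3, at the mRNA entry channel, lay at 0.015, -0.027, 0.11 and -0.015 on the WT arrays and 0.14, -0.34, 0.062 and 0.029 on those of IE-Cpr-null, and only IE-Cpr-null array 2 was clear of the rest. Its difference was -0.05 (SE 0.10, limma adjusted p = 0.87). Rps24 had 6 probe sets with differences from -0.039 to 0.15. The last of these (1455195_at) was high on IE-Cpr-null array 1 alone, at 0.75, and gave -0.058 without it. Another, 1436500_at, was high on IE-Cpr-null array 4 alone, at 0.35, with a difference of 0.11 (SE 0.078, limma adjusted p = 0.86). Rps9 on 1434624_x_at was at 0.81 on IE-Cpr-null array 1 and 0.32 on WT array 3; its difference of 0.12 (SE 0.21, limma adjusted p = 0.863) turned to -0.094 without the former.

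Further down were Rps4l, an Rps4 relative, at -0.17 (SE 0.12, limma adjusted p = 0.86), Rps2 at -0.11 (SE 0.10, limma adjusted p = 0.86) and 1 of the 6 Rps10 probe sets (1436384_at) at -0.082 (SE 0.065, limma adjusted p = 0.86). Rps4l had the reverse of the usual pattern: IE-Cpr-null array 1 was its lowest, at -0.50, and IE-Cpr-null array 2 its highest, at 0.13. Rps27l, a p53-inducible relative of Rps27, had the smallest adjusted p of the ribosomal proteins. Its 3 probe sets gave differences of 0.10, 0.068 and 0.043, of which the first, at 0.13, -0.016, -0.093 and 0.016 on the WT arrays and 0.035, 0.19, 0.072 and 0.15 on those of IE-Cpr-null, had an SE of 0.058 and a limma adjusted p of 0.804. Its WT arrays reached 0.13 and its lowest IE-Cpr-null array was 0.035, so the genotypes overlapped. Rps27 itself gave -0.018 (SE 0.033).

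The ribosomal proteins moved together from array to array, within both genotypes. Their mean over the 95 probe sets was -0.047, 0.0056, 0.18 and -0.019 on the WT arrays and 0.28, -0.23, 0.059 and -0.015 on those of IE-Cpr-null. IE-Cpr-null array 1 and WT array 3 were high, IE-Cpr-null array 2 was low, and the other 5 arrays lay between -0.047 and 0.059. The lowest of the 8 values was on IE-Cpr-null array 2 in 67 probe sets (70.5%), where 15.6% of all probe sets had their lowest value. The highest was on IE-Cpr-null array 1 in 63 (66.3%, against 32.8% of all) and on WT array 3 in 22 (23.2%, against 9.52%). Both features together, lowest on IE-Cpr-null 2 and highest on IE-Cpr-null 1 or WT 3, were seen in 66 ribosomal protein probe sets (69.5%), 20 factor probe sets (22.2%) and 1252 of all (6.79%). The probe sets share arrays, and in part transcripts, so they are not independent counts.

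**Figure D2:**
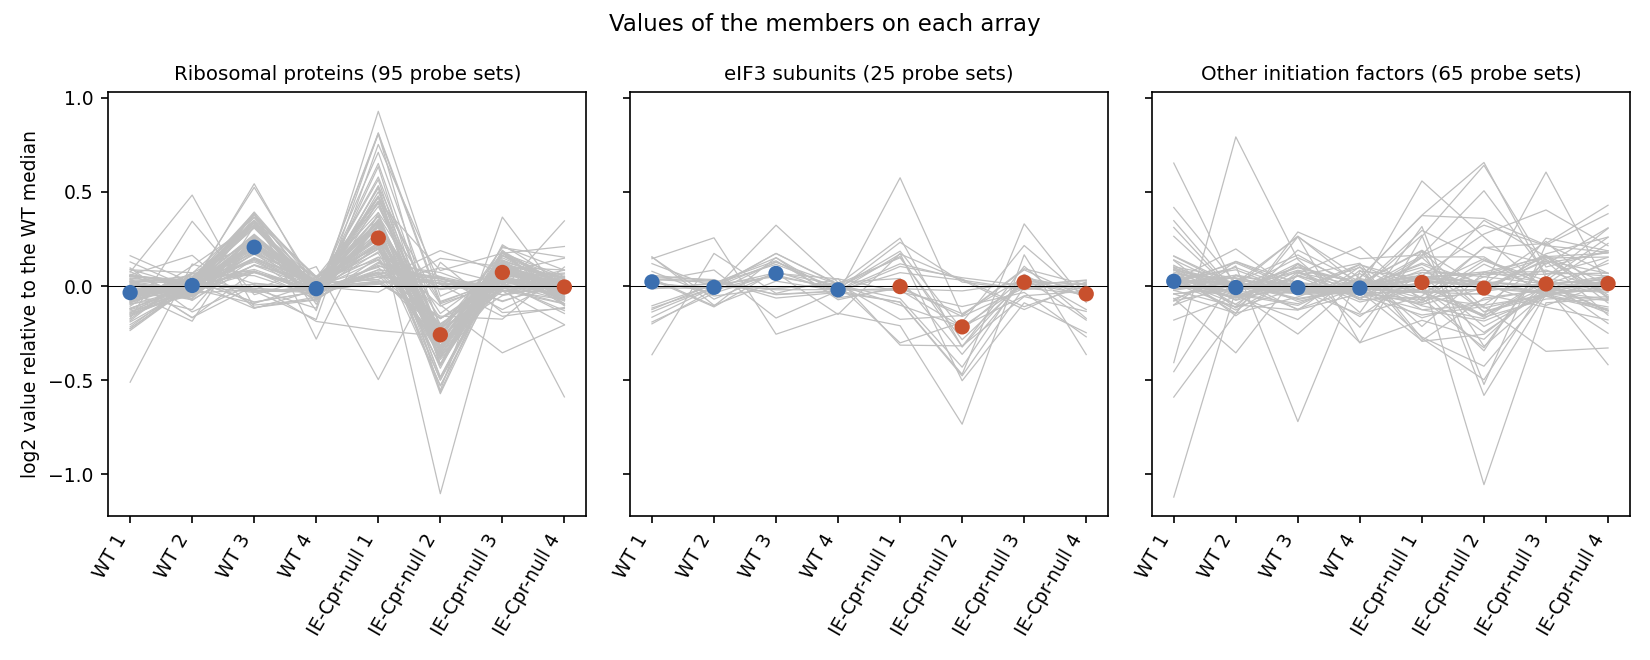
log2 value relative to the WT median (vertical axis) on each of the 8 arrays (horizontal axis), one grey line per probe set, with the median over probe sets as a blue (WT) or red (IE-Cpr-null) dot, for ribosomal proteins, eIF3 subunits and the other factors. The medians of the ribosomal proteins are 0.21 on WT 3, 0.25 on IE-Cpr-null 1 and -0.26 on IE-Cpr-null 2; the eIF3 subunits share the low median on IE-Cpr-null 2, at -0.22.

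Both subunits had this profile. The 60S and P-stalk means were -0.047, 0.0008, 0.19 and -0.029 on the WT arrays and 0.33, -0.26, 0.053 and -0.017 on those of IE-Cpr-null, and the 40S means were -0.046, 0.0095, 0.17 and -0.011 on the WT arrays and 0.24, -0.21, 0.065 and -0.014 on those of IE-Cpr-null. The 99 probe sets with several symbols, which were not members, lay at -0.071, -0.0012, 0.21 and -0.01 on the WT arrays and 0.30, -0.30, 0.073 and -0.038 on those of IE-Cpr-null. With IE-Cpr-null arrays 1 and 2 at opposite ends, the spread was wider in that genotype: the median SD of a ribosomal protein probe set was 0.12 over the WT arrays and 0.24 over the IE-Cpr-null arrays, and the latter was larger in 75 of 95 (78.9%, against 55.7% of all probe sets). The centring on WT makes the WT spread no smaller, since a constant is taken from each probe set.

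The sign of the median difference depended on these arrays. Over the ribosomal proteins it was -0.008 with all arrays, -0.10 without IE-Cpr-null array 1 and 0.079 without IE-Cpr-null array 2. Without both arrays rich in muscle transcripts (WT 2 and IE-Cpr-null 1) it was -0.11, and without both arrays rich in hepatocyte transcripts (IE-Cpr-null 2 and 3) it was 0.095. In each of these settings 0 ribosomal protein probe sets passed the threshold.

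Several other gene lists were high and low on the same arrays. Of the ribosome biogenesis genes, which make and process ribosomal RNA, 30 of 40 listed symbols were measured, and they averaged -0.046, -0.0002, 0.13 and -0.037 on the WT arrays and 0.39, -0.26, -0.0008 and -0.16 on those of IE-Cpr-null. The 6 measured of 9 crypt and proliferation markers (Ascl2, Mki67, Top2a, Pcna, Mcm2 and Mcm5) averaged -0.10, 0.028, 0.41 and -0.15 on the WT arrays and 0.72, -0.44, 0.072 and -0.19 on those of IE-Cpr-null. The spread of that mean lay mostly in Mki67 and Top2a, genes of dividing cells, at 1.57 and 1.73 on IE-Cpr-null array 1 and -1.24 and -0.93 on IE-Cpr-null array 2. Pcna, the sliding clamp of DNA replication, ran otherwise: it was at -0.24 on IE-Cpr-null array 1, all 4 IE-Cpr-null arrays were below the 4 WT arrays, and the difference was -0.26 (SE 0.048, limma adjusted p = 0.251). Ascl2 and Mcm2 lay at 0.016 to 0.091 on IE-Cpr-null array 2, within the WT range of each probe set. The Paneth markers Lyz1 and Mmp7 (2 of 4) averaged -0.34, 0.097, 1.05 and -0.097 on the WT arrays and 1.99, -1.34, -0.26 and -0.89 on those of IE-Cpr-null. Mmp7 reached 2.93 on IE-Cpr-null array 1. The Lyz1 probe set 1450822_at differed, at 0.26 on IE-Cpr-null array 1 but -0.02 on WT array 3 and 0.015 on IE-Cpr-null array 2. Its lowest value, -0.36, was on IE-Cpr-null array 4. Those 3 lists had their highest mean on IE-Cpr-null array 1, their second highest on WT array 3 and their lowest on IE-Cpr-null array 2, as did the ribosomal proteins. IE-Cpr-null array 1 was also the array richest in stromal and muscle markers and IE-Cpr-null array 2 the richest in hepatocyte markers, whereas WT array 3 was low in both (-0.24 and -0.091). The defining crypt markers Lgr5 and Olfm4 are not analysed here. The part of these cell types in the ribosomal protein values was not tested.

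**Figure D3:**
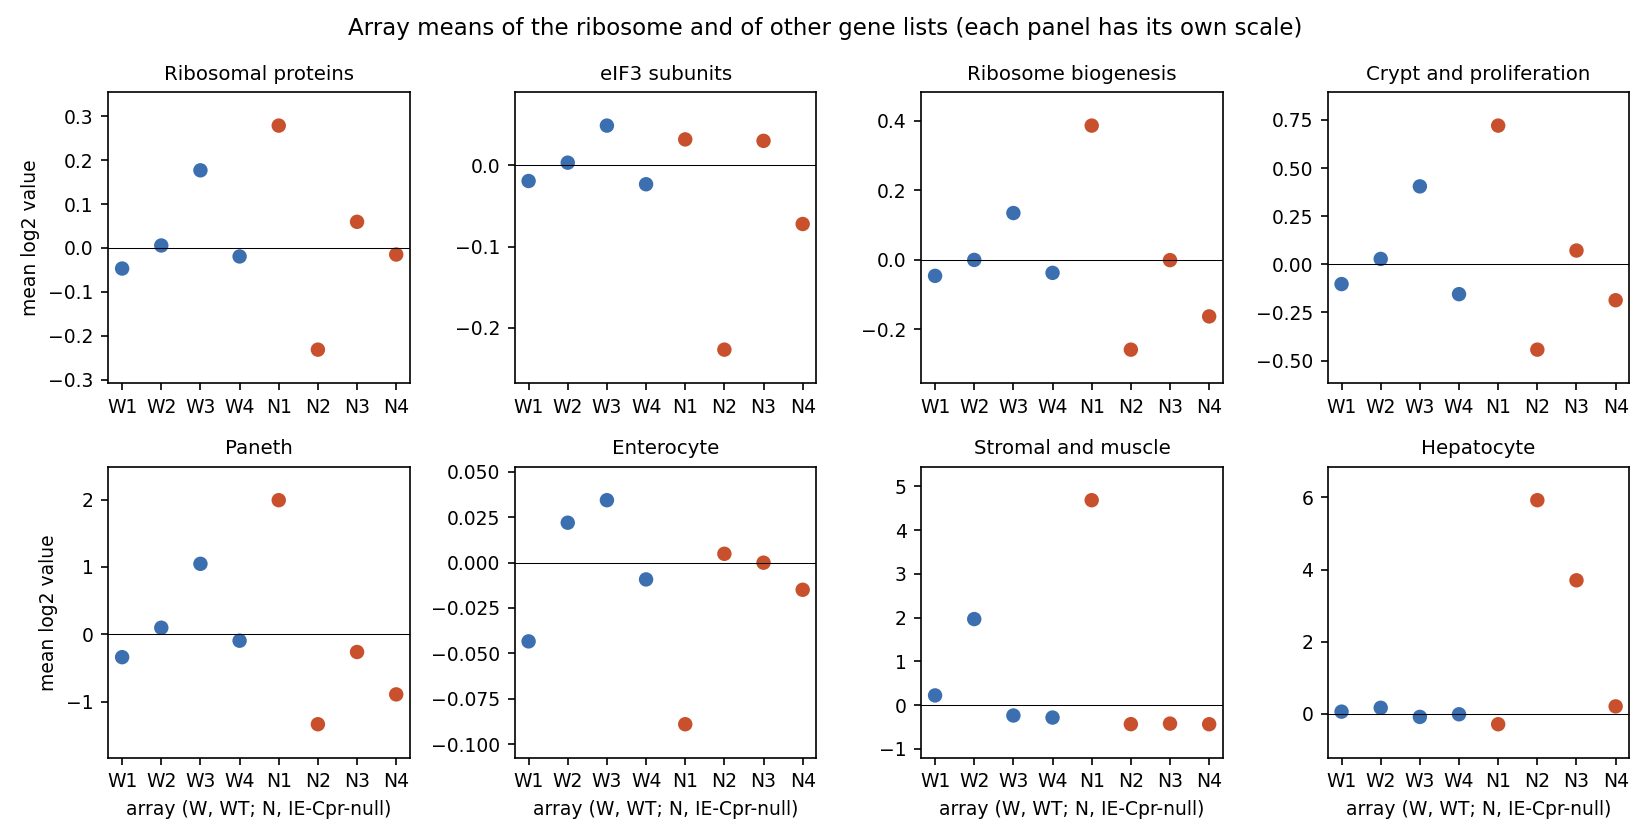
Mean log2 value relative to the WT median (vertical axis, a scale for each panel) on WT arrays 1 to 4 (W, blue) and IE-Cpr-null arrays 1 to 4 (N, red), over ribosomal protein or eIF3 probe sets or over the genes of 6 other lists. Ribosomal proteins, ribosome biogenesis, crypt and Paneth genes have their highest mean on N1, then W3, and their lowest on N2, and the enterocyte means lie within -0.089 to 0.034 on a scale of their own, lowest on N1.

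Initiation factors also did not differ past the threshold. None (0) of the 90 probe sets passed at a limma adjusted p under 0.05, where 4 of all 18443 passed (0.0217%). At an unadjusted p under 0.05 there were 3 higher (2.92% of all probe sets) and 3 lower (4.47% of all); the genotypes did not overlap in 3 probe sets, all 3 lower in IE-Cpr-null, against 2.47% of all. Shares of 3 in 90 are near these backgrounds. The median difference was -0.0044, from -0.29 to 0.32, with 42 above 0 and 48 below. In size, 10 (11.1%) were over 0.2, against 15.5% of all probe sets. Adjusted p ran from 0.5 to 0.999. The factors' median SD was 0.089 over the WT arrays and 0.115 over the IE-Cpr-null arrays, against 0.091 and 0.115 for all probe sets.

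**Figure D4:**
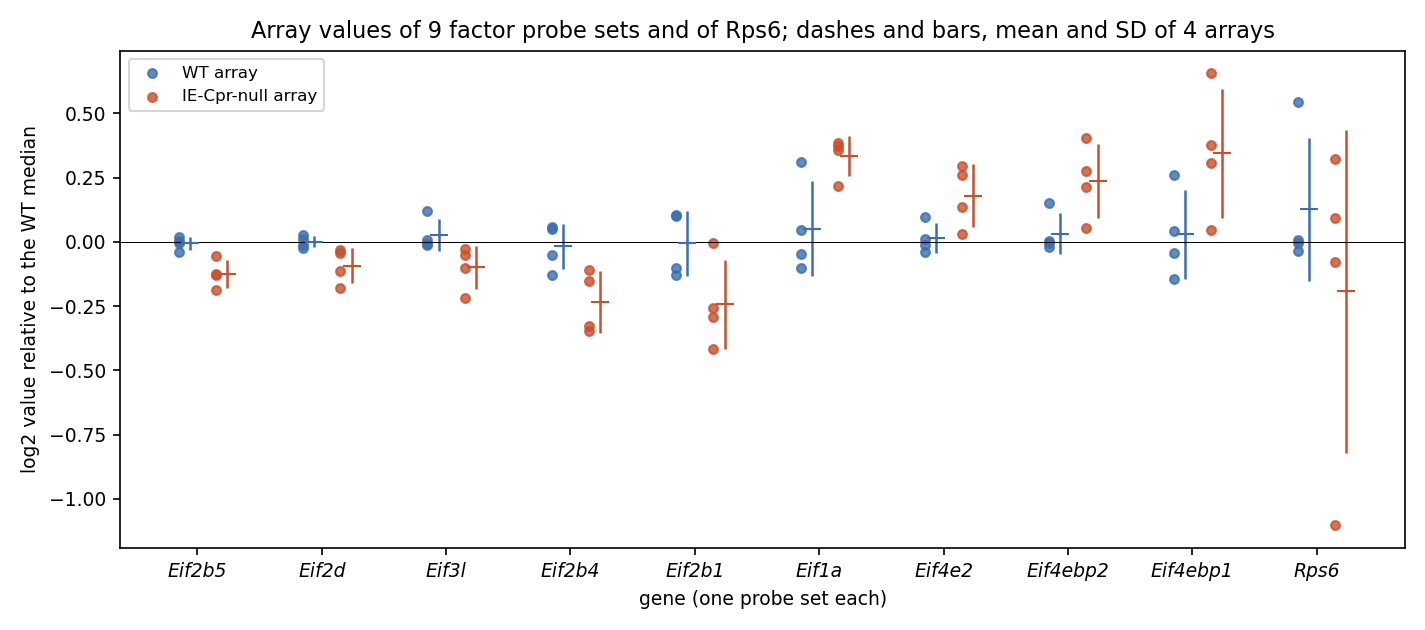
log2 value relative to the WT median (vertical axis) on each WT (blue) and IE-Cpr-null (red) array for 9 factor probe sets and for Rps6 (1416142_at), with a dash and bar for the mean and SD of the 4 arrays. Each gene is shown by its probe set with the smallest p, and other probe sets of a gene can differ from it. In Eif2b5, Eif2d and Eif3l the 4 IE-Cpr-null points lie below the 4 WT points; in the other 7 the genotypes overlap.

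The first factors on the 40S subunit are eIF1 and eIF1A, which open it for scanning. Their 5 probe sets gave 2 positive and 3 negative differences. Eif1a on 1424343_a_at lay at 0.31, -0.046, -0.10 and 0.046 on the WT arrays and 0.37, 0.36, 0.22 and 0.38 on those of IE-Cpr-null. WT array 1 reached into the IE-Cpr-null range, and the difference was 0.28 (SE 0.093, 95% interval 0.065 to 0.50, limma adjusted p = 0.516). The second Eif1a probe set, 1424344_s_at, gave 0.21 (SE 0.11, limma adjusted p = 0.753). With limma's array weights, which gave IE-Cpr-null array 4 a weight of 6.49 and WT array 4 one of 2.84 against 0.329 to 0.992 for the rest, they came to 0.34 (adjusted p = 0.0338) and 0.44 (adjusted p = 0.042), in a fit that called 4.02% of all probe sets. Eif1ax, the X-linked gene of the same factor, had differences of -0.11 and -0.14, both with a low IE-Cpr-null array 2 (-0.58 and -1.05).

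Of eIF2, whose alpha subunit gene is not analysed here, the beta subunit Eif2s2 had 6 probe sets with differences from -0.077 to 0.20, and they did not move alike. Probe set 1441023_at spread most, at -0.41, 0.79, 0.14 and -0.14 on the WT arrays and 0.32, -0.52, 0.22 and 0.068 on those of IE-Cpr-null, with both genotypes spanning 0. The gamma subunit gene Eif2s3x gave 0.043, -0.072 and -0.05, and its Y-linked copy Eif2s3y gave -0.014 (SE 0.13, limma adjusted p = 0.97). Eif2d, a factor of non-canonical initiation and ribosome recycling, lay on 1436724_a_at at -0.023, 0.027, 0.012 and -0.012 on the WT arrays and -0.032, -0.044, -0.11 and -0.18 on those of IE-Cpr-null. The genotypes did not overlap, with the lowest WT array at -0.023 and the highest IE-Cpr-null array at -0.032, and the difference was -0.093 (SE 0.043, 95% interval -0.19 to 0.0062, limma adjusted p = 0.714). A second probe set gave -0.082 (SE 0.059, limma adjusted p = 0.86) and another, nearly flat, 0.018.

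The exchange factor eIF2B had the lowest family median, -0.11 over 6 probe sets, and 3 of the 3 factor probe sets that were lower at an unadjusted p under 0.05. Eif2b5, its catalytic epsilon subunit, lay at 0.019, 0.005, -0.005 and -0.039 on the WT arrays and -0.13, -0.19, -0.055 and -0.13 on those of IE-Cpr-null. Every IE-Cpr-null array was below every WT array, and the difference was -0.12 (SE 0.038, 95% interval -0.21 to -0.03, limma adjusted p = 0.5), the smallest adjusted p of all members. Eif2b4, the delta subunit, lay at 0.05, -0.13, 0.057 and -0.05 on the WT arrays and -0.15, -0.11, -0.35 and -0.33 on those of IE-Cpr-null. Here 1 WT array (2) fell among the IE-Cpr-null values, and the difference was -0.22 (SE 0.072, 95% interval -0.39 to -0.049, limma adjusted p = 0.522). Eif2b1, the alpha subunit, lay at 0.10, -0.10, -0.13 and 0.10 on the WT arrays and -0.29, -0.26, -0.005 and -0.42 on those of IE-Cpr-null, with IE-Cpr-null array 3 within the WT range and a difference of -0.24 (SE 0.099, 95% interval -0.47 to -0.0057, limma adjusted p = 0.667). Eif2b2, the beta subunit, did not share this: its 3 probe sets gave -0.11, 0.04 and 0.02. With array weights Eif2b4 (-0.27, limma adjusted p = 0.0417) and Eif2b1 (-0.40, limma adjusted p = 0.0465) passed and Eif2b5 did not. That fit called 4.02% of all probe sets and gave IE-Cpr-null array 4, low in both genes, the highest weight (6.49). With any array left out, 0 factor probe sets passed.

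The scaffold eIF3 had 25 probe sets of 11 genes, 19 with a negative and 6 with a positive difference (7834 and 10609 over all probe sets), and a median of -0.066. Its means over probe sets were -0.019, 0.0034, 0.049 and -0.023 on the WT arrays and 0.032, -0.23, 0.03 and -0.072 on those of IE-Cpr-null. Like the ribosomal proteins it was low on IE-Cpr-null array 2, which held the lowest value in 15 of the 25 (60%), against 17 of the 65 other factor probe sets (26.2%). Its mean on IE-Cpr-null array 1 was near 0, and 10 of the 25 (40%) were highest there, against 32.8% of all probe sets. On WT array 3, where its mean was highest, 8 (32%) had their highest value, against 9.52% of all. Eif3l, a peripheral subunit, lay on 1423728_at at 0.12, -0.007, -0.012 and 0.007 on the WT arrays and -0.10, -0.22, -0.052 and -0.027 on those of IE-Cpr-null. The genotypes did not overlap, with the lowest WT array at -0.012 and the highest IE-Cpr-null array at -0.027, and the difference was -0.13 (SE 0.054, 95% interval -0.25 to 0.0004, limma adjusted p = 0.676). Its 2 other probe sets gave 0.059 and 0.034. Eif3a, the largest subunit, was negative on all 4 probe sets, from -0.29 (SE 0.20) to -0.044 (SE 0.11). The first of these lay at 0.14, 0.26, -0.26 and -0.14 on the WT arrays and -0.21, -0.73, 0.17 and -0.36 on those of IE-Cpr-null, and without IE-Cpr-null array 2 its difference was -0.14. Eif3c was likewise negative on 4 of 4 probe sets, from -0.16 to -0.042. Eif3b, Eif3d, Eif3f, Eif3i and Eif3k were negative on each of their probe sets, from -0.11 to -0.053, while Eif3e, Eif3h, Eif3l and Eif3m had probe sets of both signs. Part of these signs rested on IE-Cpr-null array 2. Without it Eif3f came to 0.021, and Eif3i to 0.038 (1448264_a_at) and -0.017 (1416233_at). Eif3a came to 0.061 (1416660_at), 0.044 (1448425_at), -0.0555 (1416659_at) and the -0.14 above. Eif3b (-0.0805), Eif3d (-0.025) and Eif3k (-0.038) stayed negative, as did Eif3c, from -0.12 to -0.039.

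The cap-binding group of eIF4 proteins had 17 of 23 differences above 0 and a median of 0.032, beside the 10609 above 0 and 7834 below of all probe sets. Eif4e, the cap-binding protein, gave -0.068 (SE 0.063) and 0.023 (SE 0.068). Eif4e2, a cap-binding repressor also called 4EHP, disagreed between its 4 probe sets. On 1435803_a_at it lay at 0.095, 0.012, -0.039 and -0.012 on the WT arrays and 0.29, 0.14, 0.029 and 0.26 on those of IE-Cpr-null. The IE-Cpr-null arrays were mostly higher but overlapped the WT range, and the difference was 0.17 (SE 0.066, 95% interval 0.012 to 0.32, limma adjusted p = 0.638). Array weights gave 0.23 (limma adjusted p = 0.041), in the fit that called 4.02% of all probe sets. On 1421986_at it was -0.13 (SE 0.11, limma adjusted p = 0.86), with WT array 1 alone at 0.42, and the remaining probe sets gave 0.038 and 0.0038.

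Eif4e3, a further cap-binding relative, had positive differences on both probe sets, 0.28 (SE 0.20, limma adjusted p = 0.86) and 0.17 (SE 0.13, limma adjusted p = 0.86). The first ran from -0.59 to 0.29 in WT and from 0.065 to 0.51 in IE-Cpr-null. The helicase genes Eif4a1 and Eif4a2 gave 0.074, 0.074 and 0.012 for the former and 0.012 for the latter. The scaffold Eif4g3 gave 0.081 (SE 0.068) and Eif4g2, a scaffold without the cap-binding site, ran from -0.096 to 0.053 over 4 probe sets. Eif4b, the helicase's partner, was at -0.12, 0.063 and -0.14.

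The 4E-binding proteins, the brake on eIF4E, had the highest family median, 0.097, with 7 of 8 differences above 0 (10609 of 18443 over all probe sets). The remaining probe set, of the eIF4E transporter Eif4enif1, gave -0.028. Eif4ebp1 lay on 1434976_x_at at -0.042, -0.14, 0.26 and 0.042 on the WT arrays and 0.38, 0.66, 0.045 and 0.31 on those of IE-Cpr-null. IE-Cpr-null array 2 was highest and IE-Cpr-null array 3 fell within the WT range; the difference, the highest of all members, was 0.32 (SE 0.14, 95% interval -0.0065 to 0.64, limma adjusted p = 0.689). Probe set 1417562_at gave nearly the same, 0.31 (SE 0.15, limma adjusted p = 0.734), at -0.016, 0.016, 0.26 and -0.30 on the WT arrays and 0.26, 0.64, 0.10 and 0.19 on those of IE-Cpr-null. The remaining one, 1417563_at, stayed within -0.021 to 0.039 on all arrays, with a difference of 0.015.

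Eif4ebp2 lay on 1436158_at at -0.004, -0.021, 0.15 and 0.004 on the WT arrays and 0.054, 0.28, 0.40 and 0.21 on those of IE-Cpr-null, with overlap through WT array 3 and a difference of 0.20 (SE 0.079, 95% interval 0.021 to 0.39, limma adjusted p = 0.613). Its other probe sets gave 0.013, 0.055 and 0.14. On 1417084_at WT array 1 stood at -1.12 against -0.02 to 0.084 for the other WT arrays, and on 1455575_at IE-Cpr-null array 3 stood at 0.60 with the other IE-Cpr-null arrays within -0.005 to 0.019. Eif4ebp1 was high on IE-Cpr-null array 2, the array low in ribosomal proteins and rich in hepatocyte markers. On IE-Cpr-null array 3, also rich in hepatocyte markers, its probe sets 1434976_x_at and 1417562_at were at 0.045 and 0.10. They were at 0.38 and 0.26 on IE-Cpr-null array 1, where the hepatocyte markers averaged -0.29. The part of hepatocytes in the Eif4ebp1 values was not tested. Eif4ebp3 is not analysed here.

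Of the late factors, Eif6, which keeps free 60S subunits from joining, lay at -0.079, -0.011, 0.097 and 0.011 on the WT arrays and 0.002, 0.35, 0.16 and 0.17 on those of IE-Cpr-null, high on IE-Cpr-null array 2, with a difference of 0.17 (SE 0.076, 95% interval -0.012 to 0.34, limma adjusted p = 0.718). Eif5a, the hypusine-bearing factor, gave 0.08 (SE 0.055) and -0.035 (SE 0.057). Eif5, the activator of the eIF2 GTPase, ran from -0.11 to 0.06 over 4 probe sets, of which 1454663_at and 1454664_a_at had WT array 1 at 0.65 and -0.46, in opposite directions. Eif5b ran from -0.12 to 0.012.

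Some probe sets carried little more than the offset of each array. In 7 of 95 ribosomal protein and 6 of 90 factor probe sets the 8 values followed the array medians over all probe sets (r of at least 0.9, range under 0.25), as did 3126 of all (16.9%). The array medians ran from -0.025 to 0.036. In 88 ribosomal protein probe sets that did not follow them, 67 (76.1%) had their lowest value on IE-Cpr-null array 2 and 78 (88.6%) their highest on IE-Cpr-null array 1 or WT array 3. Those that followed them included 3 of the 6 Rps18 probe sets, the second of Rps6 and of Rps4x, Rpl3l and Rpl39l, and among the factors a probe set each of Eif2d, Eif3e, Eif3h, Eif4e2, Eif4g2 and Eif4ebp1. The other 3 Rps18 probe sets, such as 1435712_a_at at -0.026, 0.026, 0.35 and -0.045 on the WT arrays and 0.47, -0.42, 0.19 and -0.005 on those of IE-Cpr-null, had the pattern of the ribosomal proteins.

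Genes of translation outside the rule were counted from lists chosen with earlier results of these data known, and 0 members of any passed. The elongation list (7 of 8 genes, 9 probe sets) holds elongation factors and Eef2k, the kinase of eEF2. It had 2 differences above 0 and 7 below, with gene means of -0.025, 0.09, 0.15 and -0.017 on the WT arrays and 0.11, -0.16, 0.037 and -0.034 on those of IE-Cpr-null. These means too were highest on WT array 3 and IE-Cpr-null array 1 and lowest on IE-Cpr-null array 2. Single genes weighed on them: Eef2k, not itself an elongation factor, stood at 0.74 on WT array 3 and Eefsec at 0.53 on WT array 2. Termination and recycling factors (5 of 6 genes, 13 probe sets) had 4 above 0 and 9 below. Their gene means had only the low part of this profile. They were lowest on IE-Cpr-null arrays 4 (-0.15) and 2 (-0.14). The highest was on WT array 1 (0.11), with -0.052 on WT array 3 and -0.041 on IE-Cpr-null array 1. Averaged over probe sets, the list was lowest on IE-Cpr-null array 2 (-0.14, against -0.064 on IE-Cpr-null array 4). There 6 of the 13 (46.2%) had their lowest value, against 15.6% of all probe sets. Rpsa and Fau, ribosomal proteins with other names, gave 3 differences from -0.038 to 0.042, with a highest mean on WT array 3 (0.18) and a lowest on WT array 1 (-0.14). Partners of the mRNA cap and tail (7 of 8 genes, 10 probe sets) had 3 above 0 and 7 below, of which Paip1, a poly(A)-binding protein partner, had the smallest p at -0.23 (SE 0.094, limma adjusted p = 0.646). Their gene means were highest on IE-Cpr-null array 1 (0.18) and lowest on IE-Cpr-null array 2 (-0.24), with 0.014 on WT array 3. Ribosome biogenesis genes (30 genes, 52 probe sets) had 22 above 0 and 30 below, with a median of -0.012.

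In the mTOR and S6 kinase list (11 of 18 symbols, 20 probe sets) 11 differences were above 0 and 9 below, and the gene means of all arrays lay within -0.027 to 0.0145. Sesn1, a stress-induced inhibitor of mTOR signalling, was measured by 3 probe sets and lay on 1433711_s_at at -0.059, 0.038, 0.018 and -0.018 on the WT arrays and -0.33, -0.47, -0.32 and -0.32 on those of IE-Cpr-null. All 4 IE-Cpr-null arrays were below the 4 WT arrays, and the difference was -0.35 (SE 0.048, limma adjusted p = 0.125); the second Sesn1 probe set gave -0.28 (SE 0.089, limma adjusted p = 0.484). The third, 1438931_s_at, gave -0.18 (SE 0.12, limma adjusted p = 0.86), with IE-Cpr-null array 1 at 0.13, within the WT range. Among the eIF2 alpha kinases and their targets (11 of 11 genes, 19 probe sets) 10 were above 0 and 9 below, and Ppp1r15b, a phosphatase subunit that acts on eIF2 alpha, had the smallest p at 0.14 (SE 0.057, limma adjusted p = 0.662). The gene means of this list were highest on IE-Cpr-null array 3 (0.071) and lowest on IE-Cpr-null array 2 (-0.094).

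The mitochondrial ribosome was highest on another array and, like the cytosolic one, lowest on IE-Cpr-null array 2. Its 122 probe sets of 74 genes averaged 0.066, -0.0077, -0.015 and -0.015 on the WT arrays and -0.026, -0.10, -0.041 and -0.057 on those of IE-Cpr-null, with their highest mean on WT array 1 and means below 0 on IE-Cpr-null array 1 and WT array 3. On IE-Cpr-null array 2, 37 of the 122 (30.3%) had their lowest value, against 15.6% of all probe sets. Their median difference was -0.063, with 36 above 0 and 86 below, and 0 passed; 17 were lower at an unadjusted p under 0.05 (4.47% of all probe sets) and 10 did not overlap downward (2.47% of all). In the other direction 2 were higher at an unadjusted p under 0.05 (2.92% of all) and 2 did not overlap upward (1.64% of all). The cytosolic ribosomal proteins had 0 in each of these 4 counts. The difference between the 2 ribosomes was not tested.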

How the data were processed

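The table the authors deposited holds a log2 value for each probe set on each array. GCRMA was used, per the submitters' processing notes; its version is not given in the sources here. From the values, each probe set had also been centred on the median of the 4 WT arrays (largest size of a WT median 9.54e-07), so signal over background is unknown and no dim probe set was left out. Per the labels, RNA came from 8 mice per genotype, pooled by 2, and no batch is named; p-values measure the spread between pools.

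All 18443 probe sets were fitted with limma 3.58.1 in R 4.3.3 (lmFit and eBayes, two-sided, no trend), with Benjamini-Hochberg adjustment over all and a threshold of 0.05; the prior had 1.54 degrees of freedom. Intervals are 95%. The fit was tested on simulated data. All 85 member symbols were in the RefSeq gene table (GRCm38.p6). Members, gene lists and tests were chosen with earlier results of these data known. Named were probe sets past the threshold, up to 8 non-overlapping and 4 overlapping per class (60S, 40S, factors) and direction by size, a fixed list of genes, genes whose probe sets differed in sign by over 0.3, and the 5 widest ranges; genes named beyond these were chosen after their values were seen. Of the fixed list Rplp1, Rpl3, Rpl10, Rpl36a, Rpl36al, Eif2s1, Eif4ebp3 and Eif4g1 are not analysed here. Lists outside the rule averaged all probe sets of a gene. The goblet markers (5 of 7 measured) had array means of -0.33 to 0.027 and the lymphocyte markers (8 of 10) of -0.12 to 0.24.

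Alternatives were quantile normalization, median centring of each array, array weights, replicate number as a block, mean per gene, leaving out _x_at and _s_at probe sets, a robust prior, a restriction to probe sets of above-median SD, the pairs of arrays rich in muscle or hepatocyte transcripts left out, and each array left out.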

Additional observations from a re-analysis of the deposited data

Results flagged for a closer look

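In a group of 4 arrays, an extreme array was noted when its gap to the nearest other array, divided by the range of the group, was above Dixon's 95% critical value. Over the members 34 of 370 groups (9.19%) met this, and 18 of the 144 groups of named probe sets did. Chance gives about 5% for independent, normally distributed values. The share over all probe sets was not counted, so these counts show no trait particular to the members. The values below are that ratio.

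WT array 3 was the extreme array, upward, in 5 named ribosomal protein groups: Rpl22 on 1448398_s_at (0.93), Rps27 (0.928), Rps6 on 1416142_at (0.927), Rpl37a on 1416217_a_at (0.861) and Rps2 (0.846). It was also extreme upward for Eif4ebp2 on 1436158_at (0.859). IE-Cpr-null array 1 was extreme upward in Rps9 on 1434624_x_at (0.872) and in Rpl14 (0.852). Both are the arrays on which the ribosomal protein means were highest.

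Among the factors, WT array 1 was extreme upward in Eif4e2 on 1421986_at (0.924), Eif3l on 1423728_at (0.862) and Eif4g2 on 1415863_at (0.849), and downward in Eif4ebp2 on 1417084_at (0.913). WT array 4 was extreme downward in Eif2s2 on 1448819_at (0.893), and WT array 2 upward in Eif2s2 on 1417712_at (0.831). Among IE-Cpr-null arrays, array 3 was extreme upward in Eif4ebp2 on 1455575_at (0.961) and downward in Eif1a on 1424343_a_at (0.85), array 4 upward in Eif4a1 on 1427058_at (0.861), and array 2 downward in Eif4e2 on 1421986_at (0.893).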

How the results depend on the processing

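Over the 18 settings, 0 ribosomal protein probe sets passed in each, and 0 factor probe sets passed except with array weights (5). The median difference ran from -0.11 to 0.095 for ribosomal proteins and from -0.049 (SD above the median) to 0.014 for factors. Over all probe sets 4 passed (3 higher, 1 lower); the count was 741 (352 higher, 389 lower) with array weights, 7 (6 higher) with an SD above the median, 1 (1 higher, 0 lower) with quantile normalization, and had 0 lower with the mean per gene or without the hepatocyte-rich arrays, and 1 higher and 2 lower without the muscle-rich arrays. Non-overlapping factor probe sets (0 higher, 3 lower) became 1 lower with the mean per gene, 1 higher and 4 lower with median centring, 0 lower with an SD above the median, 2 lower with quantile normalization, 3 higher and 10 lower without the hepatocyte-rich arrays, and 3 higher and 5 lower without the muscle-rich arrays; fewer arrays make non-overlap more frequent. Non-overlapping ribosomal protein probe sets (0) became 2 higher and 1 lower without the hepatocyte-rich and 2 higher without the muscle-rich arrays. The share of all probe sets without overlap is given here only for all arrays as deposited. The non-overlap counts of these settings, and those with an array left out, therefore show no trait particular to the members. The eIF3 means with an SD above the median were -0.054 on WT array 1 and -0.37 on IE-Cpr-null array 2. With each array left out, 1 to 16 of all probe sets passed (1 to 12 higher, 0 to 4 lower; 16 without IE-Cpr-null 1); non-overlap covered 0 to 1 ribosomal protein probe sets in either direction and, of the factors, 0 to 4 higher and 3 to 9 lower; the medians were -0.10 to 0.079 and -0.028 to 0.014. Of the 72 named probe sets 37 kept their sign in the settings run and 35 changed it in at least 1, none of them called with all arrays at equal weight; 4 passed with array weights. The causes were not tested.

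With the replicate number as a block, 1 of all probe sets passed (1 higher, 0 lower), 0 members passed, and the medians stayed at -0.008 for ribosomal proteins and -0.0044 for factors. The deviations of arrays with the same number correlated at -0.058, -0.041, 0.26 and 0.13. The highest correlation, 0.34, was between WT array 2 and IE-Cpr-null array 1, the arrays rich in muscle transcripts. Transcripts of other cell types enter these values, so they cannot tell whether the number pairs arrays.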
